A study of Mus musculus with 2 samples.

Results

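The writers, readers and erasers of DNA methylation and of the Polycomb histone mark were followed in regulatory T (Treg) cells, a CD4 lineage that depends on Foxp3 and keeps other immune cells in check. These 9 members, Dnmt1, Uhrf1, Dnmt3a, Tet1, Tet2, Tet3, Ezh2, Suz12 and Kdm6b, were taken by name out of 16098 genes in the count table, by a list drawn up with earlier results of these data known. GFP+ Treg cells had been sorted from spleen and lymph nodes of male C57BL/6 mice aged 7 months and captured in droplets as 2 libraries. The control library pooled 5 mice of the genotype Foxp3DTR-GFP/y Cd4creERT2, which express Foxp3 throughout life. The rescued library pooled 4 mice of the genotype Foxp3LSL/y Cd4creERT2, in which a loxP-flanked Thy1.1 and STOP cassette in front of Foxp3-GFP keeps Foxp3 silent until Cre removes it. All mice, controls included, carried the R26-Tom reporter and the CreERT2 recombinase driven from Cd4, and were given 4-hydroxytamoxifen, here 4-OHT, at postnatal day 14. The rescued Treg cells were therefore a cohort restored at that age, whereas the controls kept making new ones. The Foxp3 alleles were engineered differently in the 2 genotypes, so Foxp3 molecules were not counted from the same transcript in both. Each group had 1 library of pooled mice, so no difference had a replicate check, no p-value is given, and intervals cover counting error only.

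DNMT1 copies methylation onto the new DNA strand at replication, and UHRF1 brings it to hemimethylated sites. DNMT3A writes methylation at new sites, while TET1, TET2 and TET3 oxidise methylated cytosine and so open the way to its removal. EZH2 and SUZ12 are the catalytic and a core structural subunit of Polycomb repressive complex 2 (PRC2), which methylates lysine 27 of histone H3, and KDM6B (also called JMJD3) takes that methylation off. In Treg cells a set of enhancers, among them one in Foxp3 itself, is held free of DNA methylation, and EZH2 is known to act with Foxp3 in activated Treg cells.

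In GENCODE annotation of mouse build GRCm38 the maintenance genes lie at chr9:20907209-20959888 on the minus strand (Dnmt1, ENSMUSG00000004099) and chr17:56303321-56323486 on the plus strand (Uhrf1, ENSMUSG00000001228). Dnmt3a (ENSMUSG00000020661) spans chr12:3806007-3914443 on the plus strand. The TET genes lie on the minus strand at chr10:62804570-62908996 (Tet1, ENSMUSG00000047146), chr3:133463679-133545139 (Tet2, ENSMUSG00000040943) and chr6:83362373-83459084 (Tet3, ENSMUSG00000034832). Ezh2 (ENSMUSG00000029687) lies at chr6:47530139-47595341 on the minus strand, Suz12 (ENSMUSG00000017548) at chr11:79993106-80034123 on the plus strand and Kdm6b (ENSMUSG00000018476) at chr11:69398508-69413675 on the minus strand. For all 9 genes, 0 genes on the same strand shared exon sequence with them.

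Because Dnmt1, Uhrf1 and Ezh2 are compared below with DNA replication genes, their promoter windows were searched for the letters of an E2F site, the element through which E2F factors act on replication genes. The windows, from RefSeq on GRCm38.p6, run from 250 bases before to 50 after a transcription start, and 8 of the 9 genes had one or more. The 4 forms TTTCCCGC, TTTCGCGC, TTTGCCGC and TTTGGCGC were searched on both strands. A match lay in a window of 4 members and in 2.60% of the 27025 genes with a window. The stretches that hold the matches are shown 5′ to 3′ on the gene's strand, with the matched letters in capitals.
Ezh2, chr6:47595010-47595037: ggttgctgcgTTTGGCGCtcggtccggt
Dnmt1, chr9:20952574-20952600: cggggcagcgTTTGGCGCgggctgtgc
Dnmt1, chr9:20952825-20952852, match on the opposite strand: gtttccgcgcGCGCGAAAaagccggggt
Uhrf1, chr17:56304118-56304145: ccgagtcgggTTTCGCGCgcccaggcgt
Suz12, chr11:79992877-79992904: gacccctcatTTTCCCGCgaattcagtt
The Ezh2 and the first Dnmt1 match begin 3 and 33 bases after a start, and the others lie between 185 and 219 bases before one. The windows of Dnmt3a, Tet1, Tet2 and Tet3 held none of these letters. A match is a description of the sequence and not evidence that a factor binds there.

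The control library held 3634 cells and 15446201 UMIs (unique molecular identifiers, each standing for 1 captured transcript), and the rescued library 3390 cells and 15537656 UMIs. Median depth per cell was 3739.5 and 3846.5 UMIs, and 3 cell barcodes occurred in both libraries. Levels are given as CPM, the UMIs of a gene scaled to a common total of UMIs in every class of cells. The Treg markers summed to 3099 CPM in control and 4506 in rescued cells, with all 7 detected in both. Markers of B cells (38 and 38 UMIs in control and rescued cells), myeloid cells (39 and 51) and red blood cells (3 and 21) were near 0, with 2 of the 3 red blood cell markers and 1 of the 3 B cell markers at 0 in control cells. Markers of CD8 T or NK cells gave 288 and 266 UMIs.

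Between the libraries, the TET dioxygenase Tet3 was lower and the PRC2 methyltransferase Ezh2 higher in rescued Treg cells, while the methyltransferases Dnmt1 and Dnmt3a gave log2 ratios near 0. Tet3 had 1714 UMIs in control cells, or 111 CPM (95% interval 106 to 116). In rescued cells it had 1283 UMIs, or 82.6 CPM (78.1 to 87.2), a log2 ratio of rescued to control of -0.43 (95% interval -0.53 to -0.32). Ezh2 stood at 38.7 CPM in control cells (35.6 to 41.9, 597 UMIs) and at 50.1 in rescued cells (46.7 to 53.8, 779 UMIs), a log2 ratio of 0.38 (0.22 to 0.53). The intervals of the libraries did not overlap for either gene, which bears on counting error only. Among the 9779 genes with at least 100 UMIs, the ratio of Tet3 lay at percentile 4.89 and that of Ezh2 at percentile 90.4. Kdm6b, which opposes PRC2, stood at 64.4 in control and 73.1 in rescued cells, a log2 ratio of 0.18 (0.06 to 0.31).

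The other members gave ratios whose intervals held 0. Dnmt1 was at 48.9 CPM in control and 48.1 in rescued cells (log2 ratio -0.02, -0.17 to 0.12). Dnmt3a was at 73.7 and 76.3 (0.05, -0.07 to 0.17). Suz12, the partner of Ezh2 in PRC2, was at 74.2 and 74.6 (0.01, -0.11 to 0.13). Tet2 was at 35.2 and 38.0 (0.11, -0.06 to 0.28). Tet1 and Uhrf1 were rare in both libraries, with 97 and 86 UMIs for Tet1 (-0.18, -0.62 to 0.25) and 60 and 46 UMIs for Uhrf1 (-0.39, -0.98 to 0.19). At this depth a difference in Uhrf1 could not be told from none. UMIs were counted from transcript 3′ ends and not scaled by length, so levels are compared between libraries and classes of cells and not between genes.

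**Figure D1:**
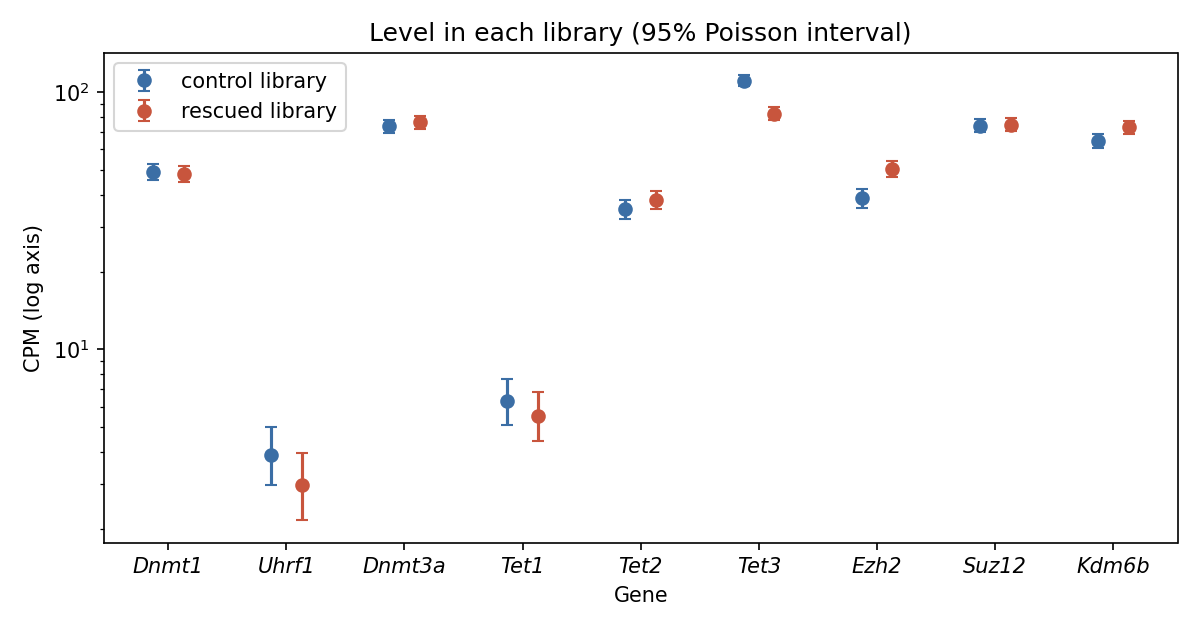
CPM (log axis) of each of the 9 genes in the control and the rescued library, with 95% Poisson intervals for counting error. Tet3 is lower in the rescued library (82.6 against 111), Ezh2 is higher (50.1 against 38.7), and Dnmt1, Dnmt3a and Suz12 nearly coincide.

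A log2 ratio beyond 0.3 in either direction was used as the limit for counting. By that limit 1 member, Ezh2, was higher in rescued cells, where 12.9% of the 9779 genes with at least 100 UMIs were. Tet3 and Uhrf1 made 2 lower members, where 8.38% of all genes were lower. With 9 members, 1 higher is close to what the background share would give. The 2 lower are more than that share would give, but the count is small and the interval of Uhrf1 held 0. The median ratio of the members was 0.01 and that of all genes 0.02.

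The differences in Tet3 and Ezh2 were smaller when like cells were compared, and the libraries held different kinds of cells. Cells of both libraries were grouped into 11 clusters without the members, Foxp3, Mki67, Top2a and tdTomato. Averaged within clusters, the log2 ratio was -0.17 for Tet3 and 0.20 for Ezh2, and 0 members passed the limit in either direction. The share of all genes past the limit under this averaging is not given, so that count has no background to be read against. Kdm6b turned to -0.055. Tet3 was lower in rescued cells in 10 of 11 clusters and higher in 1, with intervals of the libraries that overlapped in each cluster. Clusters of the same libraries are not replicates, and counts of this kind are not given for all genes. Ezh2 was higher in rescued cells in 7 of 11 clusters, and Kdm6b in 6 of 11.

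The clusters at the ends of the range were the same for several members. Cluster 6, led by Igfbp4, Ly6c1 and Dapl1, held 1248 control and 79 rescued cells, and had the highest Tet3 and the lowest Ezh2 over both libraries together. Ranks within 1 library are given among clusters with at least 100 cells of it. Tet3 reached 132 CPM there (122 to 142, both libraries together), followed by cluster 3 at 114 (103 to 127), whose interval overlaps it. Ezh2 was at 25.1 in cluster 6 (21.1 to 29.8) and at 27.8 in cluster 4 (21.2 to 35.8), which do not differ beyond counting error. Cluster 6 also had the lowest share of cycling cells, 1.73%.

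Cluster 9, led by Nr4a3, Il1r2, Marcksl1 and Nr4a1, stood at the opposite end. It had the highest Kdm6b, Dnmt3a, Ezh2 and Uhrf1 in each library and the lowest Tet3 among rescued cells. Of these highest levels, only that of Kdm6b had intervals clear of all other clusters in both libraries. Nr4a1 and Nr4a3 are known to be induced soon after T cell receptor signalling. Kdm6b was at 145 CPM in its control cells (126 to 165) and 163 in its rescued cells (146 to 182). The next highest Kdm6b levels over both libraries were 78.8 in cluster 1 (67.6 to 91.3) and 78.8 in cluster 2 (70.6 to 87.5), well below the 155 of cluster 9 (142 to 169). Dnmt3a was at 108 in control (91.9 to 125) and 128 in rescued cells of cluster 9 (112 to 145). Ezh2 was at 61.6 (49.9 to 75.3) and 73.0 (61.5 to 86.1), whereas Tet3 was at 79.1 (65.7 to 94.5) and 61.1 (50.6 to 73.2). Among control cells Tet3 was at 78.0 in cluster 2 (60.6 to 98.9), which does not differ from cluster 9 beyond counting error. For Dnmt3a the interval of cluster 9 overlapped that of cluster 3 in each library (86.7 to 113 for control, 74.2 to 117 for rescued). In control cells it also overlapped that of cluster 5 (75.5 to 124). In control cells the Ezh2 interval of cluster 9 overlapped those of clusters 1, 2, 3, 5 and 11 (41.7 to 69.4 in cluster 11). Among rescued cells the Ezh2 overlaps were with clusters 1, 3 and 7 (48.1 to 83.6 in cluster 3). Overlaps in this paragraph are given among clusters with at least 100 cells of the library. Rescued Uhrf1 in cluster 9 rested on 15 UMIs, and its interval (4.35 to 12.8) overlapped those of several clusters, among them cluster 3 (1.29 to 12.2). Cluster 9 cells were the deepest, with a median of 5330.5 UMIs.

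Cluster 11, led by Lgals3, S100a4 and Ccr2, had the lowest Dnmt3a and Suz12 and the highest Dnmt1 in each library. Its control cells had Dnmt3a at 45.6 CPM (34.2 to 59.7) and its rescued cells at 44.9 (35.4 to 56.1). Kdm6b in this cluster stood at 50.0 CPM in control cells (37.9 to 64.6) and at 21.0 in rescued ones (14.7 to 29.0), its lowest level among the rescued clusters. This pair was singled out from 9 members in 11 clusters, and the share of all genes with such a gap is not given. Among control cells Kdm6b was lowest in cluster 4, at 45.3 (35.6 to 56.8). Cluster 9 stood above cluster 11 by 2.90 times in control and 7.78 times in rescued cells. Dnmt1 was at 60.5 over both libraries (51.8 to 70.2), next to 58.4 in cluster 4 (48.7 to 69.6), and these do not differ beyond counting error. In each library the cluster 11 intervals of Dnmt1, Suz12 and Dnmt3a overlapped those of other clusters. Suz12 in control cells was at 62.0 in cluster 11 (48.5 to 78.1) and 71.2 in cluster 4 (59.0 to 85.3). Suz12 in rescued cells was at 54.2 in cluster 11 (43.7 to 66.4) and 67.8 in cluster 5 (59.3 to 77.2). Over the 11 clusters the highest level of Suz12 was 1.49 times its lowest and that of Tet2 1.52 times, against 4.74 times for Kdm6b, 2.70 for Ezh2 and 2.63 for Dnmt3a.

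**Figure D2:**
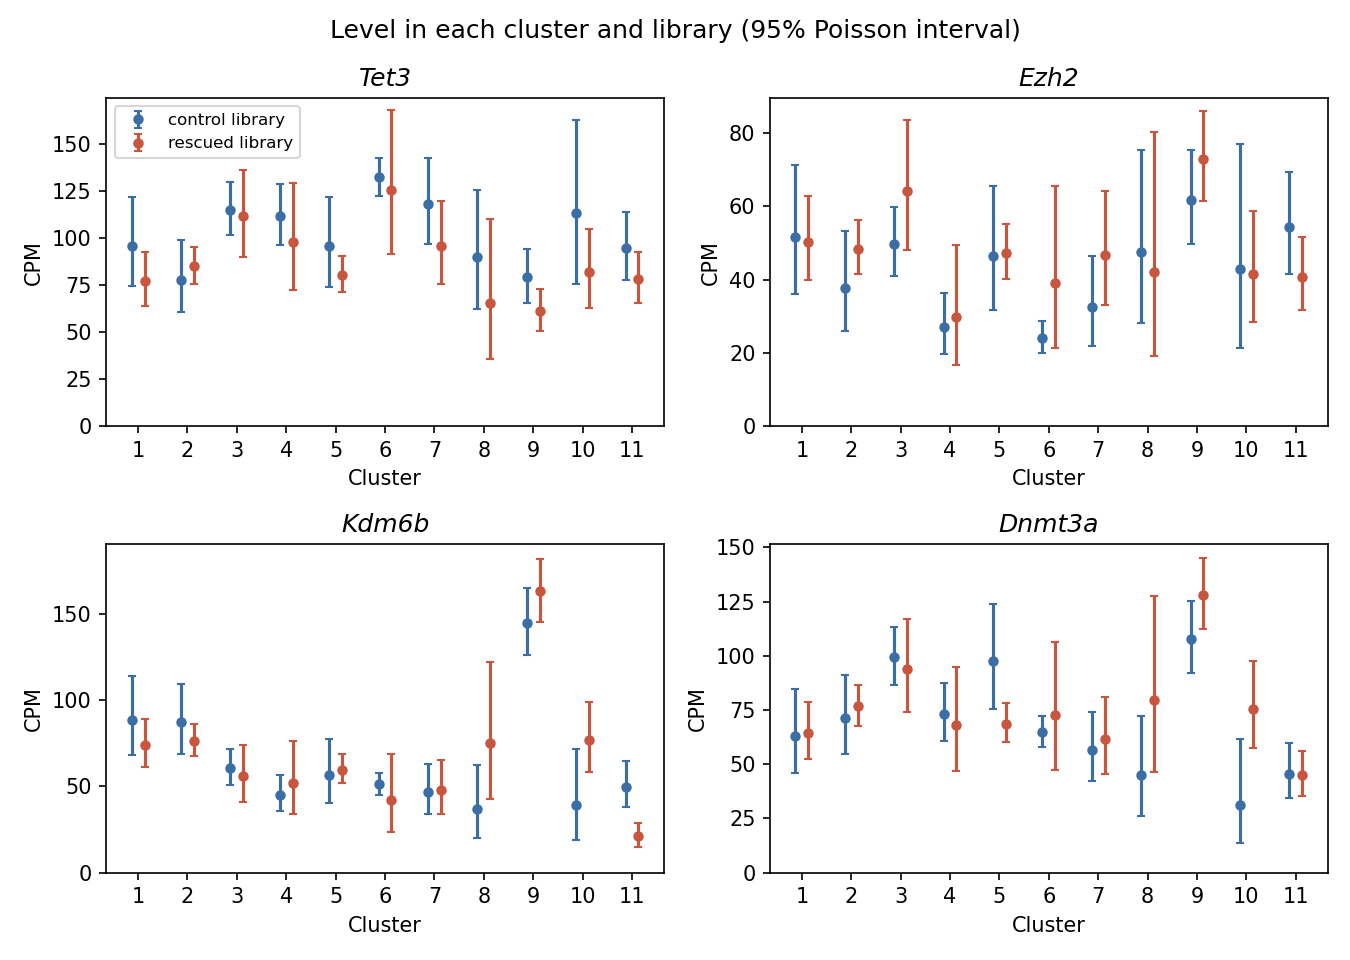
CPM of Tet3, Ezh2, Kdm6b and Dnmt3a in each of 11 clusters, for control and rescued cells separately, with 95% Poisson intervals. Kdm6b peaks in cluster 9 in both libraries (145 and 163). Dnmt3a is also highest in cluster 9, with intervals that overlap those of cluster 3 and, in control cells, that of cluster 5. Tet3 is highest in cluster 6 (132 in control cells) and lowest in cluster 9 among rescued cells. Ezh2 is lowest in clusters 4 and 6.

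The genes whose levels followed the members most closely were sought over 18 populations (a cluster in a library with at least 100 cells), among 6975 genes. Kdm6b went with Relb (Pearson r = 0.94), a subunit of NF-kappaB, and with Foxp4 (0.93), a forkhead transcription factor. Tet3 went with Ndrg3 (0.91) and Parp11 (0.88), and Dnmt3a with Cd200 (0.86) and Mbd3 (0.84), a subunit of the NuRD complex. Ezh2 was closest to Pdk3 (0.86) and Lyrm2 (0.82), Suz12 to Trim44 (0.84) and Nup214 (0.79), Dnmt1 to Zfp36 (0.81) and Isg20l2 (0.81), and Tet2 to Fzr1 (0.79) and Dtd1 (0.76). The populations share libraries and depth, and the best of so many genes is high by choice, so these are descriptions. Uhrf1 and Tet1 had too few UMIs for this.

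Other genes of the same systems are read against the same shares of all genes, 12.9% higher and 8.38% lower. Of 21 further DNA methylation genes 1 was higher and 3 lower in rescued cells, and of 17 genes of Polycomb repressive complex 1 (PRC1) 2 were higher and 0 lower. None of the 8 further PRC2 genes, 14 histone demethylases and 19 histone methyltransferases with at least 100 UMIs passed the limit (0 higher and 0 lower in each list). The median log2 ratios of these 5 lists were -0.06, 0.07, -0.02, 0.03 and -0.12. Gadd45b, a stress-induced gene linked to DNA demethylation, was at 63.2 in control and 95.4 CPM in rescued cells (log2 ratio 0.59, 0.48 to 0.71). Mat2a, which makes the methyl donor S-adenosylmethionine, was at 250.2 and 182 (-0.46, -0.53 to -0.39). Phc1 and Cbx7, both of PRC1, were higher at ratios of 0.65 (0.34 to 0.96) and 0.31 (0.22 to 0.40). After Mat2a the methyltransferases Prmt5 (-0.30, -0.49 to -0.11) and Setdb2 (-0.29, -0.64 to 0.06) were the next lowest. These genes were ranked only among companions with at least 200 UMIs. With genes from 100 UMIs on, the further DNA methylation list reached down to -1.18.

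Cycling cells were those with a UMI of Mki67 or Top2a, which mark cells in the division cycle. They made up 182 of 3634 control cells (5.01%) and 321 of 3390 rescued cells (9.47%). They were deeper than other cells, with median UMIs of 4885.5 against 3711 in control and 5439 against 3741 in rescued cells, and deeper cells are more likely to show a UMI of either gene. Only 48 control and 82 rescued cycling cells had 2 or more such UMIs.

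In cycling cells Ezh2 was higher in both libraries, and Uhrf1 and Dnmt1 were higher in the control library. The intervals of Dnmt3a, Suz12 and the TET genes held 0 in both libraries. Ezh2 was at 63.8 CPM in cycling and 36.6 in other control cells (73 and 524 UMIs, log2 ratio 0.80, 0.43 to 1.16). In rescued cells it was at 64.6 and 47.8 (140 and 639 UMIs, 0.43, 0.16 to 0.70). Dnmt1 was at 68.2 and 47.4 in control cells (0.52, 0.17 to 0.86) and at 53.0 and 47.3 in rescued cells (0.16, -0.14 to 0.45). Uhrf1 had 22 UMIs in cycling and 38 in other control cells, or 19.2 and 2.66 CPM (2.86, 2.03 to 3.65), and 11 and 35 in rescued cells, or 5.07 and 2.62 CPM (0.95, -0.17 to 1.97). Whether these differences are unequal between the libraries was not tested.

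Suz12 was at 87.4 CPM in cycling and 73.1 in other control cells (0.26, -0.05 to 0.55) and at 84.9 and 72.9 in rescued cells (0.22, -0.02 to 0.45). Tet3 gave log2 ratios of -0.24 in control and 0.07 in rescued cells, Tet2 of 0.21 and -0.16, and Dnmt3a of -0.08 and -0.15, with all of these intervals holding 0. Tet1 gave 0.35 and 0.38 from 9 and 15 UMIs in cycling cells, with intervals from -0.82 to 1.34 and from -0.53 to 1.20. Kdm6b gave -0.17 (-0.55 to 0.19) in control cells and -0.27 (-0.54 to -0.01) in rescued cells, where it was at 62.3 in cycling and 74.9 in other cells.

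**Figure D3:**
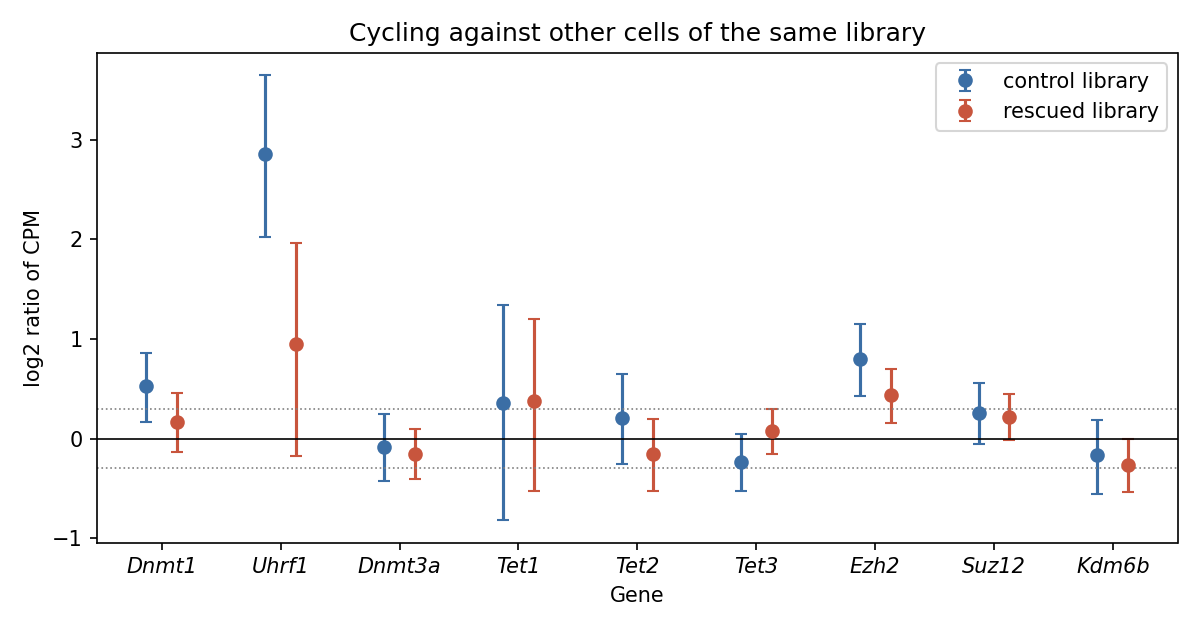
Log2 ratio of CPM in cycling against other cells for each of the 9 genes in the control and the rescued library, with 95% conditional exact intervals; dotted lines mark 0.3 and -0.3. The Ezh2 intervals lie above 0 in both libraries (ratios 0.80 and 0.43), those of Uhrf1 (2.86) and Dnmt1 (0.52) in the control library.

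By the limit of 0.3, Dnmt1, Uhrf1, Tet1 and Ezh2 were higher in cycling control cells, which is 4 of 9 members and 2 of the 7 with at least 100 UMIs in the library. Of all genes with that many, 18.7% were higher and 14.6% lower, and 0 members were lower. In the rescued library Uhrf1, Tet1 and Ezh2 were higher (3 of 9, and 1 of the 7 with at least 100 UMIs) and 0 lower, against 10.4% and 12.0% of all genes. Of 8 further PRC2 genes 1 was higher and 0 lower in control cycling cells, and 0 higher and 1 lower in rescued ones. Of the further DNA methylation genes 6 of 18 were higher and 2 lower in control cycling cells, and 1 of 17 higher and 2 lower in rescued ones. The DNA replication list had 14 of 15 tested genes higher in control and 10 of 16 in rescued cycling cells.

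The deepest cells carried a large part of these ratios. Of the 182 control cycling cells 21 had over 10000 UMIs, and these held 20 of the 22 Uhrf1 UMIs, 36 of the 78 Dnmt1 UMIs and 33 of the 73 Ezh2 UMIs. Without all cells over 10000 UMIs the log2 ratios in control cells were 0.29 for Uhrf1 (-2.82 to 2.29), 0.15 for Dnmt1 (-0.34 to 0.60) and 0.50 for Ezh2 (-0.00 to 0.97). In the rescued library 52 of 321 cycling cells were that deep and held 67 of the 140 Ezh2 UMIs, and without them the Ezh2 ratio was 0.12 (-0.25 to 0.48). Within 10 strata of depth, with no cell left out, Ezh2 stood at 0.30 in control and 0.35 in rescued cells, while Dnmt1 turned to -0.13 and -0.12. Uhrf1 stood at 1.88 in control and -0.92 in rescued cells. The part of depth in the ratios of Ezh2, Dnmt1 and Uhrf1 thus could not be told apart from that of cycling. With 2 or more UMIs of Mki67 or Top2a required, the ratios of Ezh2 were 1.35 and 0.71 and those of Dnmt1 0.87 and 0.61. The cells of that stricter class were deeper still, with medians of 7838.5 UMIs in control and 6962 in rescued cells. Depth and cycling cannot be told apart in these ratios either.

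A second grouping used the sum of 20 DNA replication genes in cells thinned to 2000 UMIs, so that each cell was scored on the same number of UMIs. It was chosen after the cycling result was seen. Cells with 3 or more such UMIs numbered 252 in control and 274 in rescued cells, those with 0 numbered 1509 and 1314, and their median depths were 3824.5 against 3792 and 3986 against 3873 UMIs. Their mean depths still differed, at 5321 against 4259 UMIs in control and 5438 against 4460 in rescued cells. Cells over 10000 UMIs made up 10.3% of the control cells with 3 or more replication UMIs and 1.99% of those with 0, and 9.49% and 3.12% in the rescued library.

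Dnmt1 and Ezh2 were higher in cells with 3 or more replication UMIs in both libraries, and Uhrf1 in the control library. The share of all genes that differed as much between these classes is not given. In control cells Dnmt1 was at 90.2 CPM with 3 or more replication UMIs and 43.3 with 0 (log2 ratio 1.06, 0.74 to 1.37), and in rescued cells at 69.1 and 45.6 (0.60, 0.26 to 0.93). Ezh2 was at 67.9 and 36.3 in control (0.90, 0.54 to 1.26) and at 86.6 and 46.1 in rescued cells (0.91, 0.60 to 1.22). Uhrf1 was at 22.4 and 2.02 in control cells, from 30 and 13 UMIs (3.47, 2.49 to 4.53), and at 4.70 and 2.73 in rescued cells, from 7 and 16 UMIs (0.78, -0.74 to 2.14). The counts of Uhrf1 in rescued cells are too small to show a difference of moderate size. Cells with 1 or 2 replication UMIs stood close to those with 0. Ezh2 was at 36.4 and 34.7 CPM in control cells with 1 and 2 such UMIs, and at 48.1 and 42.9 in rescued cells. Dnmt1 was at 44.9 and 48.8 in control and at 42.6 and 52.7 in rescued cells.

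With the cells that had a Mki67 or Top2a UMI left out, the Ezh2 intervals lay above 0 in both libraries and those of Dnmt1 and Uhrf1 in the control library. Ezh2 gave 0.63 (0.20 to 1.04) in control and 0.79 (0.44 to 1.13) in rescued cells, Dnmt1 0.90 (0.54 to 1.26) and 0.33 (-0.07 to 0.71), and Uhrf1 2.55 (1.24 to 3.87) and 0.55 (-1.28 to 2.10). Without cells over 10000 UMIs, 2 intervals still lay above 0. These were Dnmt1 in control cells, at 0.75 (0.35 to 1.14), and Ezh2 in rescued cells, at 0.73 (0.36 to 1.09). In the other library Dnmt1 gave 0.34 (-0.08 to 0.74) and Ezh2 0.36 (-0.15 to 0.84), and Uhrf1 gave 1.19 (-0.91 to 2.95) in control and 0.12 (-2.33 to 1.98) in rescued cells. Dnmt3a, Tet1, Tet2, Tet3 and Suz12 gave intervals that held 0 in both libraries, Tet3 at -0.08 in control and 0.05 in rescued cells and Suz12 at 0.28 (-0.03 to 0.58) and 0.18 (-0.12 to 0.47). Kdm6b was lower in rescued cells with 3 or more replication UMIs, at 55.0 against 73.4 (-0.41, -0.77 to -0.07), and gave 0.13 (-0.21 to 0.46) in control cells.

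**Figure D4:**
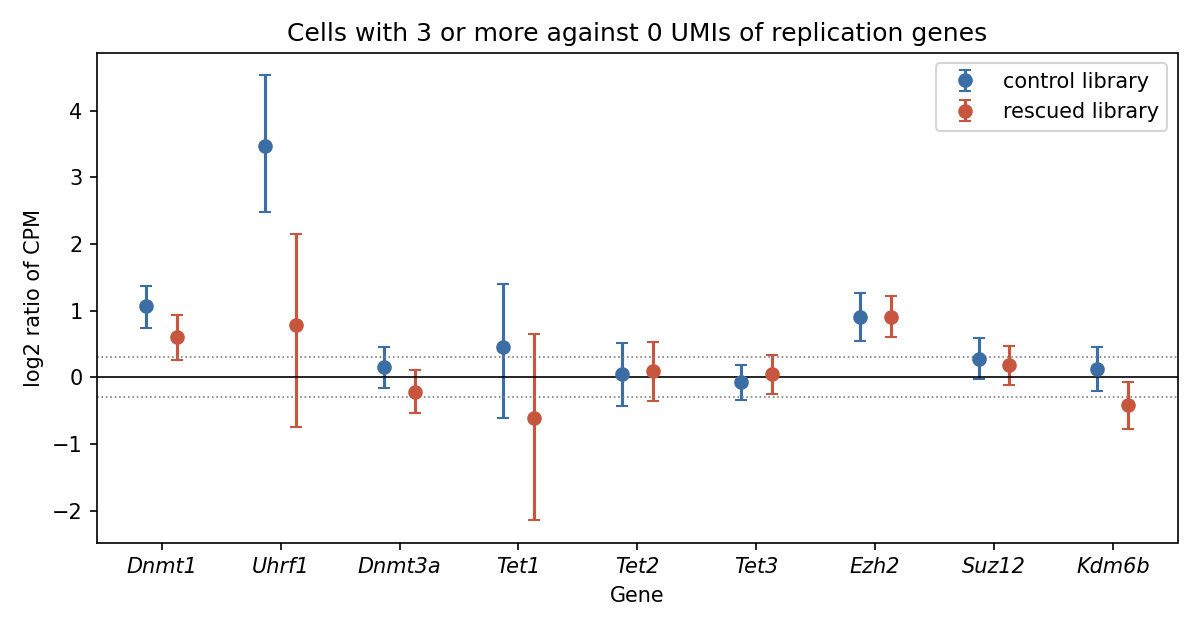
Log2 ratio of CPM in cells with 3 or more against cells with 0 UMIs of 20 DNA replication genes (cells thinned to 2000 UMIs for the grouping), with 95% conditional exact intervals; dotted lines mark 0.3 and -0.3. Dnmt1 and Ezh2 lie above 0 in both libraries (1.06 and 0.60, 0.90 and 0.91), Uhrf1 in control cells, and the TET genes, Dnmt3a and Suz12 span 0.

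Among the companion genes, those most and least abundant in cycling against other cells were named by rank. In control cells these were Gadd45b (0.65, 0.35 to 0.94), Carm1 (0.57, -0.04 to 1.12) and Phf8 (0.55, 0.12 to 0.97) at the top and Rybp (-0.60, -1.53 to 0.20), Kdm3b (-0.37, -0.86 to 0.10) and Kmt2d (-0.33, -0.78 to 0.08) at the bottom. In rescued cells the highest were Tdg (0.60, 0.12 to 1.06), the glycosylase that removes oxidised methylcytosine, Phc1 (0.45, -0.07 to 0.94) and Pcgf3 (0.36, -0.10 to 0.80). The lowest were Phf1 (-0.45, -0.71 to -0.19), a PRC2 accessory subunit, Kdm4b (-0.43, -1.04 to 0.13) and Rybp (-0.43, -1.05 to 0.14). No gene was among the highest 3 in both libraries, and Rybp was among the lowest 3 in both.

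Foxp3 itself had 1250 UMIs in the control and 7277 in the rescued library, 80.9 and 468 CPM, so a cell without a Foxp3 UMI cannot be read as a cell without Foxp3. At least 1 Foxp3 UMI was seen in 956 control cells (26.3%) and 2432 rescued cells (71.7%). Cells with one were deeper, with medians of 3980 against 3674.5 UMIs in control and 4042.5 against 3454 in rescued cells, and more often cycling (7.01% against 4.29% and 10.6% against 6.68%).

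The intervals of most members held 0 between cells with and without a Foxp3 UMI. In control cells Suz12 was the exception, at 83.8 CPM with and 70.1 without (384 and 762 UMIs, log2 ratio 0.26, 0.08 to 0.44). In rescued cells it was Dnmt3a, at 72.5 with and 89.0 without (862 and 324 UMIs, -0.30, -0.48 to -0.11). In the other library Suz12 gave -0.07 (-0.27 to 0.13) and Dnmt3a -0.07 (-0.26 to 0.12), and the difference between the libraries was not tested. The share of all genes whose intervals leave out 0 is not given, so these exceptions have no background to be read against. Within clusters Dnmt3a in rescued cells stood at -0.31 and Suz12 in control cells at 0.23, and with 3 or more Foxp3 UMIs against 0 they stood at -0.34 and 0.30. The last value rests on 29 Suz12 UMIs in 56 control cells (86.2 CPM, 57.7 to 124). Over the alternatives Dnmt3a in rescued cells ran from -0.37 to -0.17 and Suz12 in control cells from 0.19 to 0.34.

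Ezh2 gave 0.09 (-0.17 to 0.35) in control and 0.11 (-0.14 to 0.36) in rescued cells, and Tet3 -0.04 and -0.06. Dnmt1 gave 0.02 and 0.12, Tet2 -0.05 and 0.19, and Kdm6b 0.03 and 0.19, with intervals that held 0. Uhrf1 gave 0.46 in control cells and 1.03 in rescued cells, the latter from 40 and 6 UMIs with an interval from -0.22 to 2.56. Tet1 gave 0.55 (-0.08 to 1.16) and -0.17 (-0.89 to 0.60).

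**Figure D5:**
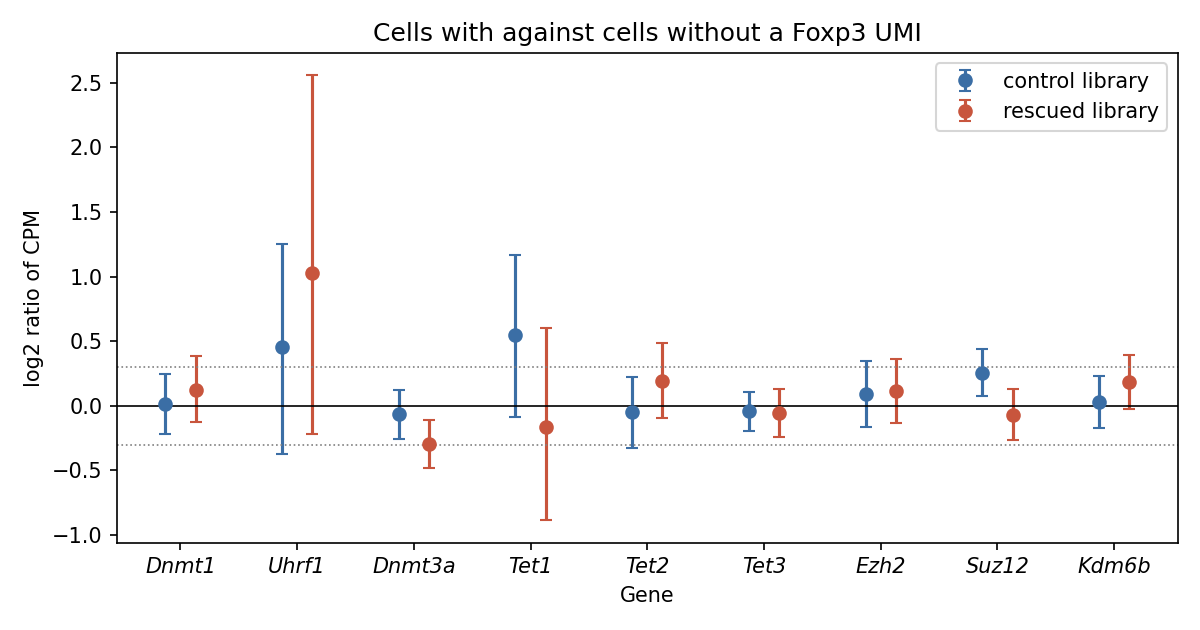
Log2 ratio of CPM in cells with against cells without a Foxp3 UMI for each of the 9 genes in both libraries, with 95% conditional exact intervals; dotted lines mark 0.3 and -0.3. Only Suz12 in control cells (0.26) and Dnmt3a in rescued cells (-0.30) have intervals that leave out 0.

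By the limit of 0.3, Uhrf1 and Tet1 were higher in control cells with a Foxp3 UMI (2 of 9) and 0 members lower, where 6.42% of all genes were higher and 3.68% lower. In rescued cells Uhrf1 was higher (1 of 9) and 0 members lower, against 6.20% and 5.11%, with Dnmt3a just short of the limit. None of the 7 members with at least 100 UMIs in the library passed the limit in either library. The companions were again ranked by ratio among those with at least 200 UMIs, and genes with fewer UMIs reached further in both libraries. Kdm4b (0.45, 0.04 to 0.85), Carm1 (0.36, -0.02 to 0.72) and Setd1a (0.32, -0.03 to 0.66) were highest in control cells with a Foxp3 UMI, and Yaf2 (-0.30, -0.50 to -0.10), Pcna (-0.13, -0.33 to 0.08) and Pcgf6 (-0.12, -0.52 to 0.26) lowest. In rescued cells Tdg (0.43, -0.04 to 0.92), Setd1a (0.36, -0.07 to 0.81) and Rybp (0.33, -0.12 to 0.80) were highest, and Setdb1 (-0.18, -0.51 to 0.16), Idh2 (-0.15, -0.43 to 0.13) and Rbbp4 (-0.14, -0.26 to -0.02) lowest.

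Control cells were also split by a UMI of the tdTomato reporter, which Cre switches on. This split was added after the other results were seen and uses control cells that also entered the comparison of the libraries. A tdTomato UMI was seen in 2287 control cells (62.9%) and in none of the other 1347. How many of these UMIs come from free RNA was not tested, so the split is by transcript and is not a comparison of cells by age or descent. The study's flow cytometry found a much smaller share of control Treg cells positive for the reporter at this time point. The median depths of the classes were 3930 and 3508 UMIs, and 6.78% and 2.0% of their cells were cycling. Ezh2 was at 42.0 CPM with and 31.7 without a tdTomato UMI (0.40, 0.14 to 0.68), and Tet3 at 107 and 119 (-0.15, -0.29 to -0.00). Kdm6b was at 67.2 and 58.4 (0.20, 0.00 to 0.40), and Tet1 had 76 and 21 UMIs (0.79, 0.07 to 1.56). Dnmt1 (0.08), Dnmt3a (-0.11), Tet2 (0.09) and Suz12 (0.07) had intervals that held 0.

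By the limit, Uhrf1, Tet1 and Ezh2 (3 of 9) were higher and 0 members lower in control cells with a tdTomato UMI, where 9.91% of all genes were higher and 3.71% lower. Of the 7 members with at least 100 UMIs, 1 passed. Within strata of depth Ezh2 stood at 0.10, and within clusters at 0.22. Among companions with at least 200 UMIs, Gadd45b (0.55, 0.33 to 0.76), Tdg (0.27, -0.11 to 0.67) and Kdm2b (0.27, 0.06 to 0.49) had the highest ratios. Ezh1 (-0.31, -0.55 to -0.06), the other PRC2 methyltransferase, Rybp (-0.28, -0.66 to 0.10) and Kdm3a (-0.17, -0.45 to 0.12) had the lowest. Between the libraries Ezh1 gave 0.16 (0.00 to 0.32), the same direction as Ezh2.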

How the data were processed

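Droplet RNA-seq (10x 3′ v3) was run on 1 control and 1 rescued library. Reads were counted by the authors in Cell Ranger 3.0 against GRCm38 with the tdTomato sequence added, and Seurat 3.1.5 is named for later steps. The deposited counts are whole UMIs per cell and gene, without normalization. The deposited log2 table was not used. All 7024 cells entered. The study's methods give a limit of 5% on mitochondrial transcripts, yet the median cell exceeds it, so no such filter was applied. Cells were assigned to libraries by the prefix of their names. There were 0 unused columns of per-sample values.

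UMIs were summed over the cells of a class, divided by all UMIs of the class and scaled to a common total (CPM). Sums carry exact Poisson intervals and ratios conditional exact intervals at 95%, which cover counting error only. With 1 library per group no test was run, and the ratio script was tested on simulated data. Background shares were taken over genes with at least 100 UMIs. Clusters came from scanpy 1.11.5 (2000 variable genes, 30 principal components, 15 neighbours, Leiden resolution 1). A doublet caller marked 3 of 7024 cells and so did not work, and an alternative leaves out the 247 cells with the highest scores. Companion genes named are the 3 highest and 3 lowest ratios per comparison among those with at least 200 UMIs. Likeness used log2 of CPM plus 10 and genes with at least 500 UMIs. The members and lists were chosen with earlier results of these data known. Alternatives were other weights, thinning to 1000 or 2000 UMIs, filters and classes, and averaging within clusters or depth strata. Python 3.11.15, numpy 2.4.6, scipy 1.17.1 and pandas 2.3.3 were used.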

Additional observations from a re-analysis of the deposited data

How the results depend on the processing

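No paired analysis was possible because the control and rescued groups are 1 library each, which also leaves no replicate to take out. Settings named here as added, the tdTomato comparison and the replication classes were chosen after seeing the data. Of 699 member ratios under an alternative, 630 lay inside the 95% interval of the reported ratio and 69 outside it. The sign differed from the reported one in 117, of which 112 belong to a ratio whose own interval holds 0. The other 5 were Kdm6b between the libraries within clusters (-0.055), Dnmt1 in cycling control cells within clusters (-0.013) and within depth strata (-0.13), Kdm6b in cycling rescued cells at 2 or more UMIs (0.032), and Tet3 in control cells by tdTomato thinned to 1000 UMIs (0.082). The cause was not tested.

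Counts of members past the limit are small whole numbers. Of 140 under an alternative 70 were equal, 20 differed by at most 1.5 times, each by 1 member, and 50 by more. Those 50 are given next, without the shares of all genes under the same settings. Higher in rescued cells, 1 as reported became 0 thinned to 2000 UMIs and within clusters. Lower in rescued cells, 2 became 1 with each cell weighted alike, thinned to 1000 UMIs, without cycling cells and without cells over 10000 UMIs (added), and 0 within clusters. Higher in cycling control cells, 4 became 2 thinned to 1000 UMIs and within depth strata. Lower in cycling control cells, 0 became 1 within clusters, 2 thinned to 2000 UMIs and 3 thinned to 1000 UMIs and within depth strata. Lower in cycling rescued cells, 0 became 1 under either thinning, without the highest doublet scores, with the class from thinned cells and by Mki67 alone, and 3 with at most 10% mitochondrial UMIs and within depth strata. Higher in control cells with a Foxp3 UMI, 2 became 1 in 5 planned and 2 added settings. Lower in those cells, 0 became 1 in 4 planned and 1 added setting, and 2 with 3 or more Foxp3 UMIs against 0. Higher in rescued cells with a Foxp3 UMI, 1 became 0 thinned to 1000 UMIs and with the class from thinned cells, and 2 with at most 10% mitochondrial UMIs. Lower in those cells, 0 became 1 in 6 planned and 1 added setting, where Dnmt3a crossed the limit in some, and 2 within depth strata. Higher in control cells with a tdTomato UMI, 3 became 1 within clusters, within depth strata and without cells over 10000 UMIs, and lower, 0 became 1 under either thinning and without those cells. Depth limits Uhrf1 and Tet1 most, since their counts are under 100 in each library. The share of all genes past the limit depends on the UMI minimum: with at least 20 or 500 UMIs in place of 100, the 6.42% higher in control cells with a Foxp3 UMI became 11.3% and 1.73%, the 6.20% in rescued cells 10.6% and 2.39%, and the 9.91% by tdTomato 15.9% and 5.08%, while with 500 the 18.7% and 10.4% in cycling control and rescued cells became 12.3% and 6.57%. The shares lower likewise became 7.75% and 0.661%, 9.38% and 1.10%, and 6.81% and 1.20%, and 9.10% and 5.17% in cycling cells.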
